A study of Mus musculus with 9 samples.

Results

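The genes described here are 9 markers of excitatory neurons and cortical layers: Slc17a7, Slc30a3 and Emx1, which mark excitatory neurons of many layers, Cux1, Cux2 and Rorb, which mark upper layers, and Fezf2, Bcl11b and Tbr1, which mark deep layers. They were chosen by gene symbol, as every row of the deposited transcript tables that carries one of the 9 symbols, which gave 47 of 115220 transcripts and 9 of 47593 gene symbols. All values come from a pull-down of RNA from neurons of the mPFC (medial prefrontal cortex) of adult C57BL/6 mice. RNA of astrocyte and oligodendrocyte markers was also present in every library. Ribosome-bound RNA was pulled down with a tagged ribosomal protein (RiboTag immunoprecipitation) and sequenced as stranded total RNA. Each of the 3 groups had 3 libraries: GFP overexpression with sleep (labelled S), GFP overexpression with enforced wake (EW), and GFP-Fxr1 overexpression with enforced wake (EWFxr1). Every group therefore carried a transgene in the mPFC, and Fxr1, which belongs to the fragile X group of RNA-binding proteins, was tested only in enforced wake and not in sleep. The labels used here name neither the promoter of the transgene nor the cells that carried the ribosomal tag, and do not say whether a library is 1 animal, so the p-values measure the spread between these libraries, which may be technical.

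Excitatory neurons of the cortex release glutamate and are stacked in layers with different targets. Neurons of the upper layers mostly connect cortical areas with each other, while neurons of the deep layers project out of the cortex, to the spinal cord and brainstem from layer 5 and to the thalamus from layer 6. These identities are held by transcription factors that partly repress each other during development: Fezf2 and Bcl11b (Ctip2) specify neurons that project below the cortex, Tbr1 specifies neurons of layer 6, and Cux1 and Cux2 mark upper-layer neurons and shape their dendrites and synapses. In adult tissue the same genes serve as markers, so their summed level in a pull-down depends on how many cells of a type were captured, on the RNA in each cell and on how much of it was on ribosomes, and in bulk samples fewer cells of a type and less RNA per cell cannot be told apart.

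In enforced wake, Slc30a3, Fezf2 and Bcl11b were higher than in sleep and Rorb and Tbr1 were lower, and the 3 deep-layer genes did not share 1 direction. Of these 5, only Slc30a3 passed whichever library was left out, and Bcl11b did not pass in most of those fits. Of the Cux1 FPKM summed over all libraries, the larger share came from transcripts with the coding end of the Golgi protein CASP. The smaller share came from those with the end that holds the Cux1 homeodomain, although this end was the higher in Fxr1 libraries 1 and 2. FPKM is divided by transcript length, so these are not shares of fragments. The CASP-end transcripts were lower in enforced wake, and the homeodomain transcripts were slightly higher. Neither call held in every fit without 1 library, and that of the homeodomain transcripts was lost in most of them. With Fxr1, none of the 9 genes passed against enforced wake after adjustment. Emx1 was lower with Fxr1 than in sleep, a call that was lost in 2 of the fits without 1 library. It was also lost with the trend of GC content and transcript length removed, and with only the 6 libraries of the 2 groups. Emx1 rested on an estimated 46.1 to 198 fragments per library.

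The 2 Cux1 products share 13 exons and part after exon 14 (chr5:136314307-136314403, minus strand, GRCm38). The next lines show the coding sequence across that junction in the most abundant transcript of each kind, since the rest of the Cux1 results turn on it. The sequences are from the GENCODE transcripts of GRCm38, 5′ to 3′; the 30 bases in lower case are shared and the 60 in capitals are those of the product alone.
Cux1-207 (CASP end): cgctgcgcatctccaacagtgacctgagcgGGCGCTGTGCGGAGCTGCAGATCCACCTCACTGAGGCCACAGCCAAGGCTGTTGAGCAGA
Cux1-201 (homeodomain end): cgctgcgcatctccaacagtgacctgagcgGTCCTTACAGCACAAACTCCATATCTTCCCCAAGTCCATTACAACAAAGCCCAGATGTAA

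Depth was estimated at 2.99e7 to 3.73e7 fragments per library from the smallest steps of the deposited values. The unit is FPKM, which divides fragments by transcript length and by the library total, and a gene's value is the sum over its transcripts. Fxr1 itself, the overexpressed gene, was at 31.0 to 34.8 FPKM in the 6 GFP libraries and at 91.1, 67.7 and 71.8 in the 3 Fxr1 libraries, as labelled. Library 1 of enforced wake with Fxr1 stood apart, scoring 54.5 on principal component 1 (58.0% of the variance) against -26.7 to 11.3 for the rest. Transcript GC content also separated the libraries: the rank correlation of a gene's deviation with its GC content, over 11513 protein-coding genes, lay between -0.39 and 0.25 in sleep, between 0.65 and 0.74 in enforced wake under GFP, and between -0.81 (library 1) and -0.26 under Fxr1. Because this trend differed between the groups, each difference was also computed with the trend of GC content and transcript length removed, a step that would also take away a true change tied to GC content. Markers of other cells were present in every library, with summed levels over 14 inhibitory genes of 463 to 577 FPKM, over 10 astrocyte genes of 362 to 511 FPKM and over 10 oligodendrocyte genes of 103 to 169 FPKM.

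Slc17a7 encodes the vesicular glutamate transporter VGLUT1, which fills synaptic vesicles with glutamate in cortical excitatory neurons (ENSMUSG00000070570, chr7:45163949-45176142, plus strand). Its level was 219, 184 and 229 FPKM in sleep, 230, 239 and 270 in enforced wake, and 98.3, 179 and 200 in enforced wake with Fxr1. All enforced wake libraries were above all sleep libraries, and the 3 Fxr1 libraries were below all enforced wake libraries, with library 1 far lowest. It was the most abundant of the 9 genes in each group and ranked at the 98.6th percentile of 12456 protein-coding genes. Slc30a3 encodes ZnT3, the transporter that loads zinc into glutamatergic vesicles (ENSMUSG00000029151, chr5:31086106-31108237, minus strand), and it was at 25.7, 20.4 and 23.1 FPKM in sleep, 30.9, 34.5 and 37.4 in enforced wake, and 10.1, 23.0 and 26.4 with Fxr1. Enforced wake was again above both other groups without overlap. Emx1, a homeobox gene of the dorsal forebrain whose lineage gives rise to cortical excitatory neurons and glia (ENSMUSG00000033726, chr6:85187438-85204462, plus strand), was the lowest of the 9 at 3.81, 3.08 and 4.20 FPKM in sleep, 3.19, 3.80 and 3.49 in enforced wake, and 1.08, 2.02 and 1.87 with Fxr1. The Fxr1 libraries were all below every GFP library, while sleep and enforced wake overlapped. Its coding transcript, Emx1-201, held 74.7% of the gene's FPKM and was listed at 0, 1.39 and 1.56 FPKM with Fxr1. In Fxr1 library 1 the whole gene value thus came from a transcript with a retained intron, and the exact 0 can be a failed estimate. Emx1 rested on an estimated 46.1 to 198 fragments per library, against 9710 to 23700 for Slc17a7.

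Among the upper-layer genes, Cux1, a homeobox transcription factor (ENSMUSG00000029705, chr5:136248135-136567490, minus strand), summed over all 14 transcripts to 18.0, 13.8 and 17.1 FPKM in sleep, 11.2, 11.3 and 13.9 in enforced wake, and 8.32, 9.21 and 16.3 with Fxr1. Enforced wake was lower except that its library 3 lay just above sleep library 2, and Fxr1 library 3 lay within the sleep range. Its paralogue Cux2 (ENSMUSG00000042589, chr5:121856366-122050102, minus strand) was at 15.9, 17.6 and 15.5 FPKM in sleep, 14.5, 19.1 and 23.3 in enforced wake, and 11.8, 15.8 and 12.6 with Fxr1. The groups overlapped, and enforced wake had the widest spread. Rorb, a nuclear receptor that marks layer 4 and takes part in forming its cell clusters in sensory cortex (ENSMUSG00000036192, chr19:18930605-19111196, minus strand), was at 11.96, 12.86 and 11.46 FPKM in sleep, 8.71, 9.37 and 9.69 in enforced wake, and 10.6, 8.30 and 9.59 with Fxr1. All 6 enforced wake libraries, with and without Fxr1, were below all sleep libraries.

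Among the deep-layer genes, Fezf2, a zinc finger factor that specifies layer 5 neurons projecting below the cortex (ENSMUSG00000021743, chr14:12342094-12348189, minus strand), was at 10.3, 8.48 and 10.9 FPKM in sleep, 14.1, 13.6 and 14.2 in enforced wake, and 6.80, 11.2 and 11.8 with Fxr1. The enforced wake libraries lay close together and above all others. Bcl11b, the zinc finger factor Ctip2, which acts downstream of Fezf2 in these neurons (ENSMUSG00000048251, chr12:107910403-108003602, minus strand), was at 10.8, 10.9 and 10.6 FPKM in sleep, 13.2, 12.5 and 12.5 in enforced wake, and 13.2, 11.7 and 11.5 with Fxr1. Both enforced wake groups were above sleep, and they overlapped each other. Tbr1, a T-box factor of layer 6 neurons projecting to the thalamus (ENSMUSG00000035033, chr2:61802930-61814114, plus strand), was at 37.4, 34.1 and 35.0 FPKM in sleep, 30.8, 25.7 and 27.2 in enforced wake, and 32.7, 31.5 and 30.3 with Fxr1. It went the opposite way to Fezf2 and Bcl11b, with both enforced wake groups below sleep, although the lowest sleep and highest Fxr1 libraries were close.

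**Figure D1:**
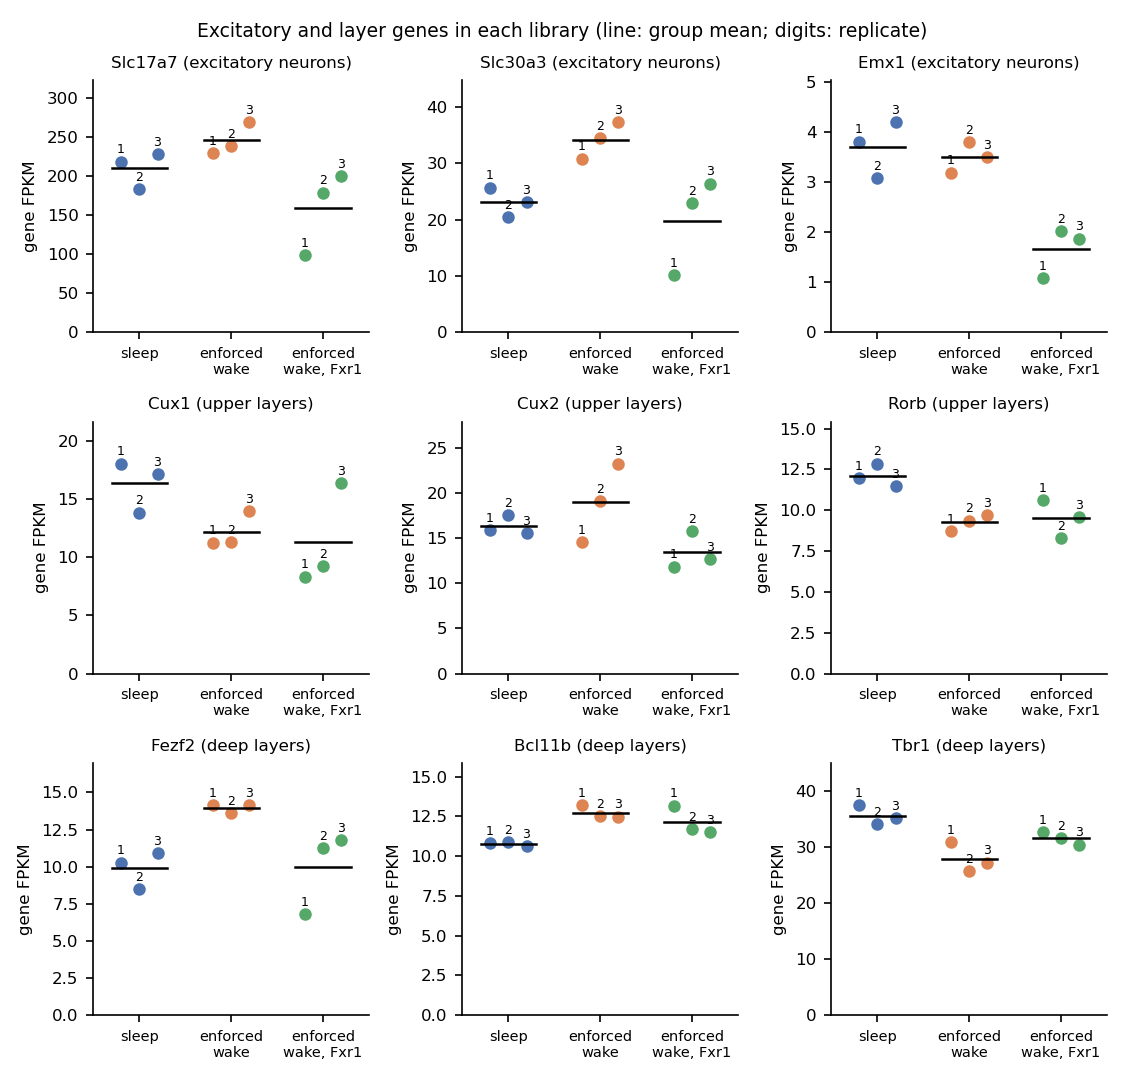
Gene FPKM (y axis, from 0) of the 9 genes in each library, by group (x axis); points are libraries with their replicate number and lines are group means. Slc30a3 and Fezf2 are highest in enforced wake, Rorb and Tbr1 are highest in sleep, and library 1 with Fxr1 is lowest for Slc17a7 (98.3) and Slc30a3 (10.1).

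In sleep the order of mean levels was Slc17a7 (210 ± 23.6, SD, n = 3), Tbr1 (35.5 ± 1.73), Slc30a3 (23.1 ± 2.62), Cux1 (16.3 ± 2.22), Cux2 (16.3 ± 1.09), Rorb (12.1 ± 0.710), Bcl11b (10.8 ± 0.113), Fezf2 (9.89 ± 1.26) and Emx1 (3.70 ± 0.570). The ranges of neighbours in that order overlapped for Cux1 with Cux2 and for Bcl11b with Fezf2, and not for the other neighbours. In enforced wake Slc30a3 (34.2 ± 3.27) stood above Tbr1 (27.9 ± 2.63) and Fezf2 (14.0 ± 0.305) above Bcl11b (12.7 ± 0.414), and the ranges of neighbours overlapped only for Bcl11b and Cux1. With Fxr1 the ranges overlapped for each pair of neighbours from Slc30a3 down to Rorb.

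The comparison of enforced wake with sleep asks which of these genes follow the loss of sleep under GFP. Slc30a3 was higher by 0.55 (SE 0.10, 95% interval 0.31 to 0.80, adjusted p = 0.0129), on the scale of log2(FPKM + 1) that is used for all differences here, by limma's moderated test adjusted over all 14673 genes tested. Fezf2 was higher by 0.47 (SE 0.093, adjusted p = 0.0151) and Bcl11b by 0.22 (SE 0.056, adjusted p = 0.0286). Rorb fell by 0.35 (SE 0.070, adjusted p = 0.0152) and Tbr1 fell by 0.34 (SE 0.080, adjusted p = 0.0239). All 5 had groups that did not overlap. Cux1 differed by -0.40 (95% interval -0.69 to -0.10, adjusted p = 0.0527), Slc17a7 by 0.23 (-0.015 to 0.47, adjusted p = 0.136), Cux2 by 0.18 (-0.19 to 0.56, adjusted p = 0.409) and Emx1 by -0.058 (-0.32 to 0.20, adjusted p = 0.714), and none of these 4 passed.

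Thus 5 of the 9 genes passed, 3 higher and 2 lower, while 28.3% of all genes tested passed, 15.7% higher and 12.7% lower. Groups that did not overlap were found for 6 of the 9, and for 49.5% of all genes, so a gap between the groups was common in this comparison. By class, the passing genes were 1 of 3 for excitatory neurons, 1 of 3 for upper layers and 3 of 3 for deep layers, the last in opposite directions. The median difference of the 9 was 0.18, the value of Cux2, against 0.0043 over all genes. With the trend of GC content and transcript length removed, Cux2 was again the middle gene of the 9, at -0.13, so the sign of this median reversed. The median of all genes with that trend removed is not given here. A shift of the 9 genes as a set was not tested.

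Leaving out 1 library ended several calls while the differences stayed of similar size, 0.20 to 0.24 for Bcl11b, -0.41 to -0.29 for Tbr1, -0.39 to -0.31 for Rorb and 0.37 to 0.53 for Fezf2. Bcl11b did not pass without sleep replicate 1 or 3 or any 1 of the enforced wake replicates (adjusted p = 0.0584 to 0.0858), and Tbr1 did not pass without sleep replicate 1 or 3 or enforced wake replicate 2 or 3 (0.0571 to 0.0776). Rorb missed the threshold without enforced wake replicate 2 (adjusted p = 0.0524) and Fezf2 without enforced wake replicate 3 (0.0545). Cux1 passed without sleep replicate 2 (-0.50, adjusted p = 0.0275). Slc30a3 passed whichever library was left out (adjusted p = 0.0172 to 0.0468). In the fit on all 9 libraries, Slc30a3 (adjusted p = 0.252), Rorb (0.0585), Fezf2 (0.136) and Bcl11b (0.0951) did not pass.

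Some values moved with the way transcripts were combined. Bcl11b was at 0.079 (adjusted p = 0.378) with only its most abundant transcript counted and at 0.14 (0.0920) with a length-weighted sum, and passed in neither. Cux1 was at -1.85 (adjusted p = 0.00641) with only its most abundant transcript, which has the CASP end, and at -0.040 (0.654) with the length-weighted sum, and it passed with median scaling (-0.40, 0.0474). The values of Rorb are given with its transcripts.

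GC content moved with this comparison. The genes of enforced wake minus sleep had a rank correlation of 0.55 with GC content over 12521 protein-coding genes, and the median difference was -0.17 in the 20% of genes with the lowest GC content and 0.29 in the 20% with the highest. Slc17a7, with 58.5% GC, lies in the highest of these bins, and its difference of 0.23 was below the median there. Slc30a3 (60.3% GC) and Fezf2 (56.7%) lie there too, and theirs were above it. Tbr1 (51.9% GC) went against its own bin, whose median was 0.12. With the trend removed, 6 of the 9 genes passed, against 26.2% of all genes: Slc30a3 remained higher by 0.19 (adjusted p = 0.0449) and Fezf2 by 0.23 (0.0297), Tbr1 lower with -0.43 (0.0102) and Rorb with -0.25 (0.0239), and Cux1 (-0.51, adjusted p = 0.0159) and Emx1 (-0.59, 0.00515) were now lower. Bcl11b no longer passed (0.12, adjusted p = 0.143), and Slc17a7 (-0.11) and Cux2 (-0.13) changed sign without passing.

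**Figure D2:**
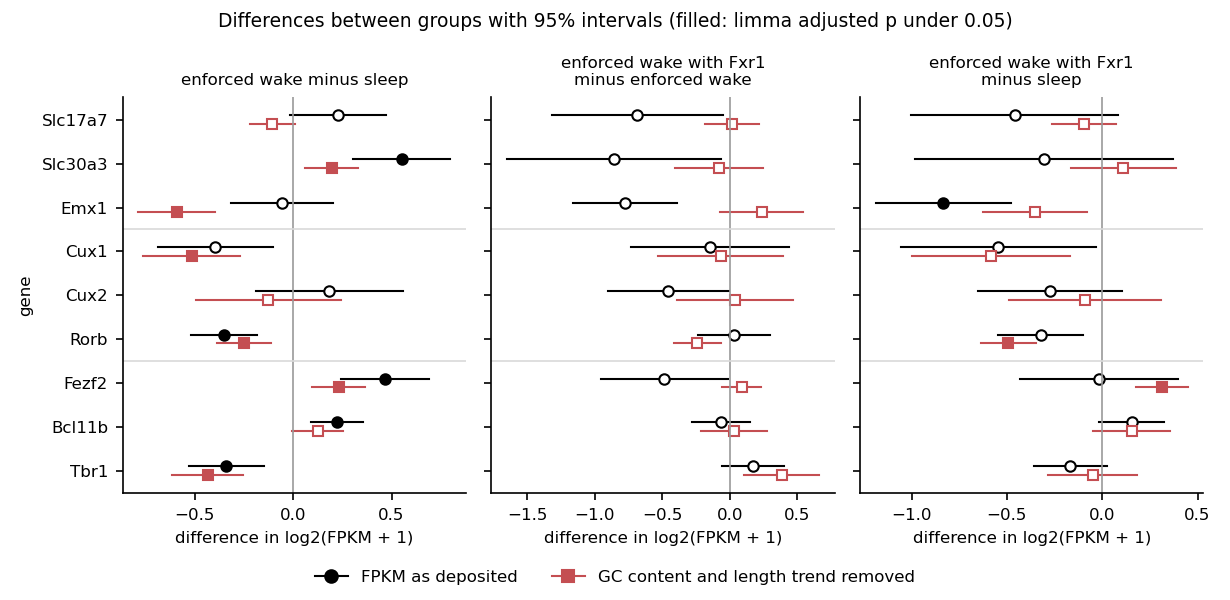
Differences in log2(FPKM + 1) (x axis) of the 9 genes (y axis) in 3 comparisons, with 95% intervals, from the deposited FPKM (black circles) and with the trend of GC content and transcript length removed (red squares); filled symbols passed an adjusted p of 0.05. In enforced wake minus sleep, Slc30a3 and Fezf2 lie right and Rorb and Tbr1 left of 0 in both, and in the comparison with Fxr1 the values of Slc17a7 and Slc30a3 move from -0.69 and -0.86 to 0.016 and -0.081.

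Cux1 could be split by the end of its coding sequence. Of its summed FPKM over the 9 libraries, 60.4% lay in 3 transcripts with the CASP end (Cux1-207, Cux1-211 and Cux1-205) and 33.4% in 5 transcripts with the homeodomain end (Cux1-201, Cux1-204 and 3 others). Cux1-207 has 2821 bases and Cux1-201 has 12862, so these shares of FPKM are not shares of fragments. CASP shares the coiled-coil start of Cux1, lacks the DNA-binding domains and sits in the Golgi membrane, so the FPKM of the gene is not the level of the transcription factor alone. The split was chosen after the values were seen. It rests on shared coding ends in the annotation and on general knowledge of the 2 products, with no protein sequence compared, and Cux1-205 has 16 exons and 472 amino acids, so it is shorter than the other CASP-end transcripts. Transcripts with the CASP end summed to 12.9, 9.50 and 12.5 FPKM in sleep, 5.75, 5.27 and 7.87 in enforced wake, and 3.11, 3.69 and 11.5 with Fxr1. Those with the homeodomain end summed to 4.12, 4.04 and 3.87 FPKM in sleep, 4.74, 5.25 and 5.10 in enforced wake, and 4.29, 4.82 and 3.64 with Fxr1. Enforced wake was below sleep without overlap for the first and above it without overlap for the second. The CASP end was above the homeodomain end in all sleep libraries, nearly level with it in enforced wake library 2 and below it in Fxr1 libraries 1 and 2.

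In place of the gene sum in the same test, the CASP end fell by 0.80 in enforced wake (SE 0.16, 95% interval -1.19 to -0.41, adjusted p = 0.0160), and the homeodomain end was higher by 0.27 (SE 0.067, 0.11 to 0.43, adjusted p = 0.0289). With the GC and length trend removed the CASP end was at -0.91 (adjusted p = 0.00711) and the homeodomain end at 0.15 (0.113), so only the first passed. In the fit on all 9 libraries neither passed (adjusted p = 0.201 for the CASP end and 0.116 for the homeodomain end). The CASP end did not pass without enforced wake replicate 1 (-0.75, adjusted p = 0.0509) or 2 (-0.70, 0.0531). Among the fits without 1 library, the homeodomain end passed only where enforced wake replicate 1 was left out (0.30, adjusted p = 0.0481); without any 1 of the other libraries its values were 0.24 to 0.28 (adjusted p = 0.0504 to 0.104).

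In the Fxr1 libraries against enforced wake neither end passed (CASP end -0.21, 95% interval -1.22 to 0.79, adjusted p = 0.716; homeodomain end -0.20, -0.48 to 0.068, adjusted p = 0.217), with wide intervals, since Fxr1 library 3 had a CASP end as high as sleep. Against sleep the CASP end was at -1.01 (95% interval -1.87 to -0.15, adjusted p = 0.126) and, without Fxr1 replicate 3, at -1.51 (adjusted p = 0.0104). The homeodomain end was at 0.062 (-0.16 to 0.28, adjusted p = 0.681).

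**Figure D3:**
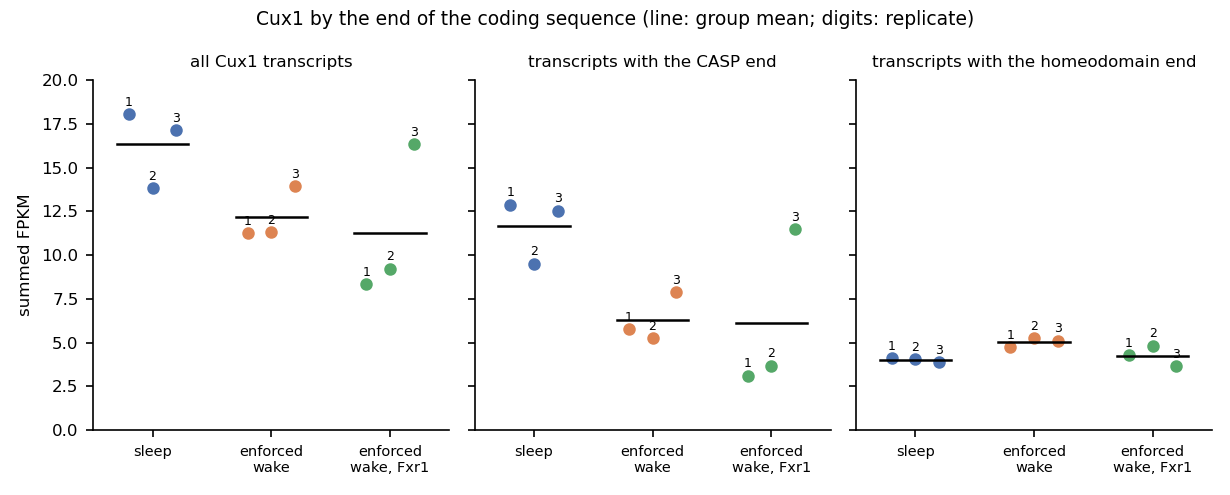
Summed FPKM (y axis) of all Cux1 transcripts, of the 3 with the CASP end and of the 5 with the homeodomain end, in each library by group (x axis); points carry the replicate number and lines are group means. The CASP end lies between 9.50 and 12.9 in sleep and between 5.27 and 7.87 with enforced wake and GFP, while the homeodomain end stays between 3.64 and 5.25 in all 9 libraries.

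Single transcripts are estimated from fragments that their gene's other transcripts share, and some of these estimates switched. Of the 24 transcripts of the 9 genes that could be tested in enforced wake against sleep, 5 passed, while 3.62% of all 29116 transcripts did. Within the CASP end, Cux1-207 fell by 1.85 (adjusted p = 0.0133), while Cux1-211 was higher by 1.09 (0.0381) and Cux1-205 by 0.88 (0.0414). Cux1-207 and Cux1-211 encode 678 and 676 amino acids and are nearly the same RNA, so their sum is the firmer value. Within the homeodomain end, Cux1-204 was higher by 2.04 (adjusted p = 0.00312): it was listed at 3.09, 3.24 and 3.37 FPKM in enforced wake and at 3.25 in Fxr1 library 2, but at 0 to 0.0976 in the other 5 libraries, where Cux1-201 was at 1.896 to 4.272. An exact 0 can be a failed estimate. Bcl11b-203, the shorter of the 2 main Bcl11b transcripts, was higher by 0.72 (adjusted p = 0.0345), with 1.27, 1.02 and 1.16 FPKM in sleep and 2.48, 2.51 and 2.63 in enforced wake; Bcl11b-201, with 86.4% of the gene's FPKM, was at 9.39, 9.84 and 9.48 in sleep and 10.7, 9.92 and 9.85 in enforced wake.

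With Fxr1 against enforced wake, 1 of 22 transcripts passed (0.895% of all did): Cux2-210 fell by 2.98 (adjusted p = 0.0157), from 4.72, 6.90 and 10.7 FPKM to 0, 0 and 0.0786. It was also listed at 0 in sleep library 2, beside 2.69 and 4.08 in the other sleep libraries. Cux2-202, which encodes a protein of the same 1426 residues, was at 4.89 to 6.85 FPKM in all 9 libraries. The gene's other main row, Cux2-205, is a transcript of 420 bases with 34.2% of the summed Cux2 FPKM. Against sleep, 0 of 23 transcripts passed by limma with Fxr1, and 0.818% of all did. An unadjusted p under 0.05 was found for 4 of the 23, with no share of all transcripts at that threshold given here. In the authors' deposited table no transcript of the 9 genes had a q-value under 0.05; the smallest was 0.189, for Cux1-204 between sleep and enforced wake.

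Rorb has 2 main transcripts that start 110 kb apart and share 9 of their 10 exons. The promoter sequences are shown since the estimates moved between these starts in some libraries. Each is the 250 bases before the start site from RefSeq (GRCm38.p6, minus strand, 5′ to 3′), with CG pairs in capitals: 18 before the distal start (chr19:19111197-19111446) and 4 before the proximal one (chr19:19001118-19001367), against a median of 6 over 32851 promoters.
Rorb-203, distal start: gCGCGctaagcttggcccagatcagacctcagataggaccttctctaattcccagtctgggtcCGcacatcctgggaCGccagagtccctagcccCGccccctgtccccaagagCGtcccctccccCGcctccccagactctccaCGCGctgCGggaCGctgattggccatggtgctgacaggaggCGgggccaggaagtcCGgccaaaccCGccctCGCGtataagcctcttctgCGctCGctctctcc
Rorb-201, proximal start: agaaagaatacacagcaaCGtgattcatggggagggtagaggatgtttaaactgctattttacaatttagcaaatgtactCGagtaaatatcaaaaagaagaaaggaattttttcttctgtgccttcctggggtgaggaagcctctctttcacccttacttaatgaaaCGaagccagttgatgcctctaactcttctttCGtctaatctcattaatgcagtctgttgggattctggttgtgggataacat

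Rorb-203 held 84.1% of the gene's FPKM and Rorb-201 15.0%. Rorb-201 was at 7.12 FPKM in sleep library 2 and 5.39 in Fxr1 library 1, where Rorb-203 was at 5.66 and 4.97, and at 0 to 0.948 in the other 7 libraries, where Rorb-203 was at 8.28 to 11.9. The switch thus followed 2 single libraries of different groups and no condition, and the gene sum in those libraries (12.9 and 10.6) was the highest of its group in each case. With only the most abundant transcript counted, Rorb differed between enforced wake and sleep by -0.061 (adjusted p = 0.891) in place of -0.35.

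Turning to Fxr1 during enforced wake, 7 of the 9 values were negative, and those of the excitatory genes were the lowest. Slc30a3 differed by -0.86 (SE 0.33, 95% interval -1.65 to -0.063, adjusted p = 0.116), Emx1 by -0.78 (SE 0.16, -1.16 to -0.39, adjusted p = 0.0878) and Slc17a7 by -0.69 (SE 0.26, -1.32 to -0.054, adjusted p = 0.115). Fezf2 was at -0.49 (adjusted p = 0.123) and Cux2 at -0.46 (0.128). Cux1 (-0.15), Rorb (0.029), Bcl11b (-0.067) and Tbr1 (0.17) were nearer 0. By limma 0 of the 9 genes passed, while 0.412% of all genes did. An unadjusted p under 0.05 was found for 5 of the 9. No share of all genes at that unadjusted threshold is given here, so this count has nothing to be set against. The Fxr1 libraries lay below enforced wake without overlap for Slc17a7, Slc30a3, Emx1 and Fezf2, that is 4 of 9, and so did those of 32.3% of all genes.

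Without library 1 of the Fxr1 group, which stood apart, these 4 genes passed and the other 5 did not: Emx1 at -0.61 (adjusted p = 0.0117), Slc30a3 at -0.46 (0.0324), Fezf2 at -0.26 (0.0329) and Slc17a7 at -0.37 (0.0389), with 22.8% of all genes passing then. All 4 differences were smaller without that library than with it. With the GC and length trend removed, and all 3 libraries kept, 0 of the 9 passed by limma, while 0.34% of all genes did. An unadjusted p under 0.05 was found for 2 of the 9, again with no share of all genes to set beside it. The values became 0.24 for Emx1, -0.081 for Slc30a3, 0.086 for Fezf2 and 0.016 for Slc17a7. The 4 genes have 56.7% to 66.8% GC and lie in the bin with the highest GC content, whose median difference was -0.64.

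Compared with sleep, the Fxr1 group had 1 of 9 genes passing, against 7.79% of all genes: Emx1 fell by 0.83 (SE 0.16, 95% interval -1.19 to -0.48, adjusted p = 0.0214), with no overlap. It did not pass without sleep replicate 1 (-0.81, adjusted p = 0.0837) or 3 (-0.76, 0.0814), or with the GC and length trend removed (-0.35, 0.0794). Its coding transcript Emx1-201, tested by limma as a single transcript, was at -1.02 (adjusted p = 0.250). Rorb was at -0.32 (SE 0.098, 95% interval -0.55 to -0.099, adjusted p = 0.0801). Cux1 was at -0.54 (adjusted p = 0.153), Slc17a7 at -0.46 (0.227), Slc30a3 at -0.31 (0.499), Cux2 at -0.27 (0.290), Tbr1 at -0.17 (0.213), Fezf2 at -0.019 (0.950) and Bcl11b at 0.15 (0.202). The groups did not overlap in the lower direction for Emx1, Rorb and Tbr1, as for 21.2% of all genes.

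Without Fxr1 replicate 1, Rorb passed as well as Emx1 (-0.40, adjusted p = 0.0294, and -0.67, 0.0152), with 9.85% of all genes passing. Without Fxr1 replicate 3, Cux1 passed (-0.82, adjusted p = 0.0246). With the GC and length trend removed, Rorb (-0.49, adjusted p = 0.00210) was lower and Fezf2 (0.31, 0.0108) higher than in sleep, 2 of 9, against 16.2% of all genes. The 2 comparisons with enforced wake share its libraries, and those with sleep share the sleep libraries, so the values of a gene are given side by side and not as separate evidence.

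The balance of upper against deep layers was described as the mean log2(FPKM + 1) of Cux1, Cux2 and Rorb minus that of Fezf2, Bcl11b and Tbr1. It is a score of these genes in a bulk pull-down, and the layers and cell types their RNA came from were not tested. This balance was -0.10, -0.016 and -0.14 in sleep, -0.63, -0.35 and -0.19 in enforced wake, and -0.47, -0.56 and -0.33 with Fxr1. All enforced wake libraries were below all sleep libraries, the nearest by a small step, and the 2 enforced wake groups overlapped. The separation from sleep did not hold for sums in place of mean logs: the ratio of summed upper to summed deep FPKM was 0.780 to 0.828 in sleep and 0.593, 0.768 and 0.871 in enforced wake, so library 3 of enforced wake lay above every sleep library. The mean was lower by 0.30 in enforced wake than in sleep and by 0.37 with Fxr1 than in sleep, with no test, since the members were chosen by name. With only the homeodomain end counted for Cux1, the balance was -0.73, -0.54 and -0.77 in sleep, -0.99, -0.67 and -0.62 in enforced wake, and -0.75, -0.83 and -0.97 with Fxr1. Sleep and enforced wake then overlapped, and their means were 0.083 apart in place of 0.30. The further layer genes described below did not share the direction of this balance. For enforced wake minus sleep their median difference was 0.048 in the upper-layer list and -0.14 in the deep-layer list. With the GC and length trend removed the medians were -0.20 and -0.19.

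**Figure D4:**
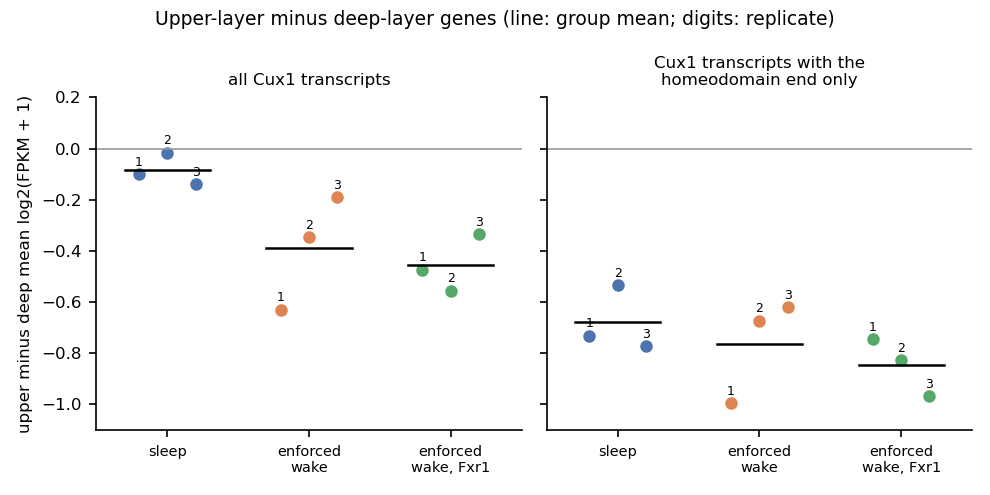
Mean log2(FPKM + 1) of the upper-layer genes minus that of the deep-layer genes (y axis) in each library by group (x axis), with all Cux1 transcripts and with only those that have the homeodomain end; points carry the replicate number and lines are group means. The step from sleep (mean -0.085) to enforced wake (-0.39) in the first panel shrinks in the second (-0.68 to -0.76).

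Further genes of the same classes were read from lists. Of 10 other genes of excitatory neurons, 2 rose in enforced wake and none fell by limma, while 28.3% of all genes passed: Nptx1, a secreted pentraxin of excitatory synapses (0.54, adjusted p = 0.00985), and Nrgn, a calmodulin-binding protein of dendritic spines (0.46, 0.0279). They were 2 of the 4 most abundant, at a mean of 93.0 and 184 FPKM. The other two differed less: Sv2b, a synaptic vesicle protein, by -0.072 (adjusted p = 0.552), Camk2a, the kinase of synaptic plasticity, by 0.11 (0.320). In sum, this list lay at 833 to 948 FPKM during sleep, at 961 to 1042 during enforced wake and at 817 to 962 with Fxr1. Its median difference was -0.074, so the sum and the median had opposite signs. With the GC and length trend removed, 1 of the 10 passed, higher.

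Of 12 other upper-layer genes, 2 rose and 4 fell, that is 6 of 12, against 28.3% of all genes. Mdga1, an adhesion protein of upper-layer neurons, was higher by 0.88 (adjusted p = 0.0384) and Wfs1, a membrane protein of the endoplasmic reticulum, by 0.56 (0.0204). Pvrl3 (nectin 3), an adhesion protein, fell by 0.94 (adjusted p = 0.00189), Calb1, a calcium buffer, fell by 0.49 (0.0128), Unc5d, a netrin receptor, fell by 0.38 (0.00930) and Pou3f2, a POU factor, fell by 0.32 (0.0162). Lamp5 and Rasgrf2, the most abundant of the list with Calb1, differed by 0.050 (adjusted p = 0.537) and 0.045 (0.592). The upper-layer list thus had no common direction. With the GC and length trend removed, 0 of the 12 were called higher by limma and 5 lower (26.2% of all genes passed then). An unadjusted p under 0.05 was found for 7 of 12, with no share of all genes at that threshold given here.

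Of 20 other deep-layer genes, 19 could be tested (Nxph4 was below the minimum level), and 5 fell and none rose by limma. Of all genes 28.3% passed, 12.7% lower and 15.7% higher. With the GC and length trend removed, 6 of the 19 were called lower and 0 higher, while 26.2% of all genes passed in either direction. The 5 that fell in the deposited FPKM were Foxp2, a forkhead factor of layer 6 (-0.67, adjusted p = 0.0323), Syt6, a synaptotagmin of layer 6 (-0.61, 0.0296), Etv1, an ETS factor of layer 5 (-0.46, 0.00748), Rprm, a cell cycle inhibitor used as a layer 6 marker (-0.42, 0.0372), and Hs3st4, a heparan sulfate sulfotransferase (-0.32, 0.0211). The most abundant genes of the list were Pcp4, a calmodulin regulator (-0.31, adjusted p = 0.0556), Crym (0.19, 0.249), Ldb2 (-0.12, 0.143) and Etv1. The list's median was -0.14. Its genes together lay at 671 to 743 FPKM during sleep, at 573 to 640 during enforced wake and at 648 to 712 with Fxr1. Much of that sum was Pcp4 alone, with means of 398 FPKM in sleep, 320 in enforced wake and 419 with Fxr1. Tbr1 went the same way as these 5 genes, and Fezf2 and Bcl11b went the other way.

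With Fxr1 against enforced wake, 0 genes of these 3 lists passed by limma, while 0.412% of all genes did. An unadjusted p under 0.05 was found for 3 of 10, 7 of 12 and 6 of 19, with no share of all genes given here to set beside these counts. With the GC and length trend removed 0 passed too (0.34% of all genes did). An unadjusted p under 0.05 was then found for 3, 2 and 6, again with no share of all genes given. Against sleep, 7.79% of all genes passed. From these lists Mdga1 was higher with Fxr1 than in sleep by 1.10 (adjusted p = 0.0424). Pvrl3 fell by 0.46 (0.0458), Rprm fell by 0.85 (0.0232) and Ntsr1, a neurotensin receptor of layer 6 neurons, fell by 0.53 (0.0167). Rprm and Pvrl3 were thus lower in both groups of enforced wake than in sleep, which share the sleep libraries.

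**Figure D5:**
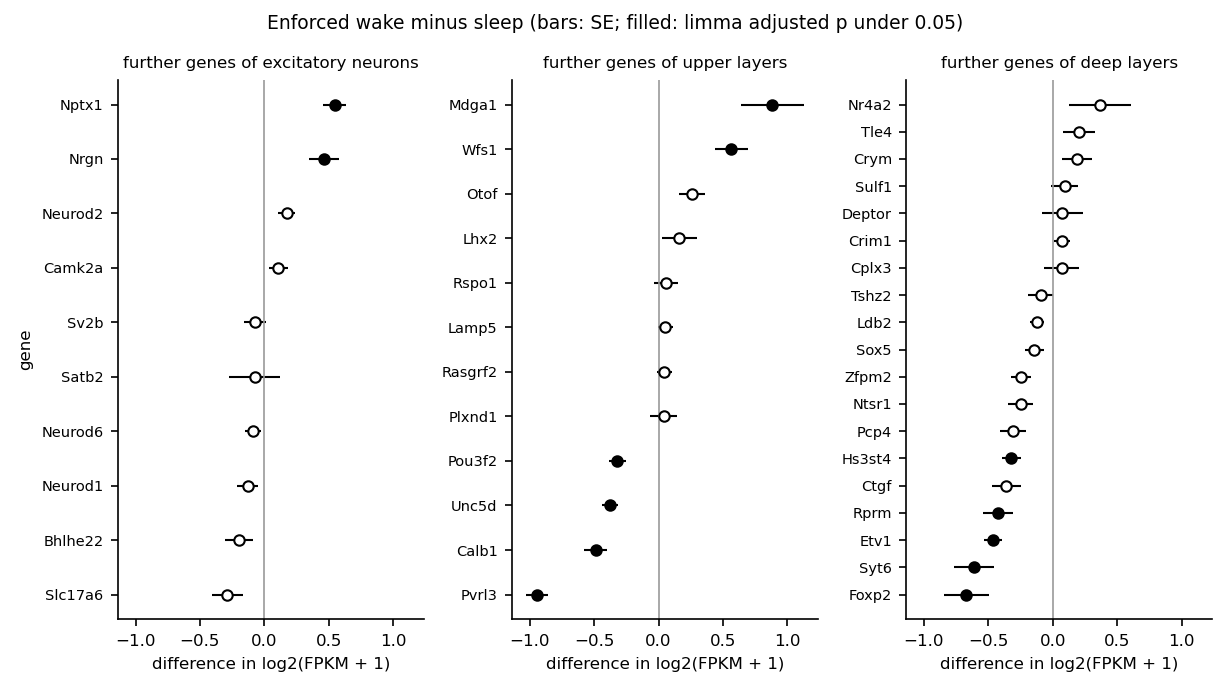
Enforced wake minus sleep in log2(FPKM + 1) (x axis) for each tested gene of the further lists (y axis) of excitatory neurons, upper layers and deep layers; bars are SE and filled points passed an adjusted p of 0.05. Upper-layer genes run from -0.94 for Pvrl3 to 0.88 for Mdga1, and all filled deep-layer genes lie left of 0.

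Markers of other cells moved with the same comparisons, and their part in the results was not tested. In enforced wake against sleep, 2 of 14 inhibitory genes rose, against 28.3% of all genes passing (Vip by 0.42, adjusted p = 0.0120, and Slc32a1, the GABA vesicle transporter, by 0.46, 0.0490). Among striatal genes, Rasd2 rose by 0.49 (adjusted p = 0.0230). Of 10 astrocyte genes, Gjb6 rose by 1.12 (adjusted p = 0.00235) and Sox9 fell by 0.34 (0.0378), and of 10 oligodendrocyte genes Mbp rose by 0.92 (0.00235) while Opalin and Aspa fell by 0.86 (0.00168) and 0.64 (0.0128). The inhibitory genes together lay at 463 to 545 FPKM during sleep, at 527 to 577 during enforced wake and at 477 to 501 with Fxr1. With Fxr1 against enforced wake, Gfap of astrocytes fell by 1.62 (adjusted p = 0.0245) and Trem2 of microglia fell by 0.89 (0.0245), and the summed astrocyte level was 362 to 417 FPKM against 435 to 511. No gene of the inhibitory, astrocyte, oligodendrocyte or microglial lists was at 0 in any library.

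The genes whose pattern over the 9 libraries was most like that of 3 of the markers were named by their Pearson r of log2(FPKM + 1) among 11517 genes, as a description; the points share libraries and the GC trend. For Slc17a7 they were Cntnap1 (r = 0.997), Scamp4 (0.995) and Matk (0.995). For Fezf2 they were Mau2 (0.993), Fscn1 (0.992) and Lrfn2 (0.991). Cux2 had lower values, with S100a16 (0.951), Cxcl14 (0.948) and Tmem189 (0.944). The 9 named genes have 51.9% to 60.6% GC, near the 55.5% to 58.5% of the 3 markers.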

How the data were processed

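Ribosome-associated RNA pulled down from mPFC neurons, with RNA of glial markers also present, was sequenced in 9 libraries, 3 per group. Per the file headers, the authors deposited FPKM per transcript in 2 tables, and beside them a fold (ratio), a p-value and a q-value; for the tool behind these, nothing was given in the sources used. Per the submitters' processing notes, HISAT2 2.1.0, SAMtools 1.9 and StringTie 1.3.4d were used with the build GRCm38. The enforced wake values were identical in both tables, so all libraries were set side by side. FPKM carry no counts, so no count model was used; the smallest FPKM steps gave the depth estimate.

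FPKM were summed by gene symbol, genes averaging under 0.5 in the libraries compared were dropped, and log2(FPKM + 1) was tested with limma 3.58.1 in R 4.3.3 (eBayes with trend), 2-sided, across all genes, taking an adjusted p (Benjamini-Hochberg) under 0.05 as passing. Both comparisons with enforced wake used their own 6 libraries, and Fxr1 against sleep used all 9. For a single gene, 3 against 3 libraries cannot give an exact permutation p below 0.1. The trend correction fitted splines (5 degrees of freedom) of GC content and log length of the longest transcript to each library's deviations, over protein-coding genes averaging 1 FPKM or more. Gene positions came from GENCODE M21, which held 99.1% of the gene identifiers. The symbols nectin 3 and Ccn2 were matched as Pvrl3 and Ctgf. The fit was tested on simulated data.

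Members and lists were chosen with earlier results of these data known. Named besides the members are, from each neuronal list, the 4 genes with the highest mean FPKM and each gene of a count of 5 or fewer that passed; from lists of other cells, genes that passed are named in part, and 1 result is not reported here. Transcripts are named from a mean FPKM of at least 1, and Cux1-205 was added after its values were seen. Alternatives were another pseudocount (0.1), no filter, other sets of libraries, a replicate block, median scaling, no variance trend, the most abundant transcript only and leaving out each library. The split of Cux1 and a length-weighted sum were added after seeing the data.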

Additional observations from a re-analysis of the deposited data

How the results depend on the processing

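Estimated depth limits Emx1 most, and 3 libraries per group limit every call. Of the alternatives that keep all libraries, the count of genes passing in enforced wake against sleep was 4156 and moved to 1398 with all 9 libraries in the fit and 2319 with the most abundant transcript only. For Fxr1 against enforced wake it was 60 and moved to 29 with a pseudocount of 0.1, 4 without a filter, 3366 with all 9 libraries and 39 with the GC and length trend removed. Against sleep it was 1138 and moved to 183 with only the 6 libraries of the 2 groups, 1860 with the trend removed and 569 with the most abundant transcript. The cause was not tested; a fit on all 9 libraries pools the wider spread of the Fxr1 group with that of the others.

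Members passing went from 5 to 1 (Tbr1) in enforced wake against sleep and from 0 to 1 (Emx1) in Fxr1 against enforced wake with all 9 libraries. Against sleep they went from 1 to 0 with 6 libraries and with the most abundant transcript, and to 2 with the trend removed and with the length-weighted sum. Upper minus deep moved for enforced wake against sleep from -0.30 to -0.78 with the most abundant transcript, -0.13 with the length-weighted sum and -0.083 with the homeodomain end, for Fxr1 against enforced wake from -0.065 to -0.26 with the trend removed, and for Fxr1 against sleep from -0.37 to -0.78, -0.17 with the homeodomain end and -0.53 with the trend removed.

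Leaving out 1 library gave 1822 to 3631, 2 to 3316 and 248 to 1440 genes passing in the 3 comparisons, 2 to 6, 0 to 4 and 0 to 2 members, and upper minus deep of -0.40 to -0.18, -0.19 to 0.034 and -0.43 to -0.32. The highest count for Fxr1 against enforced wake came without Fxr1 replicate 1.

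The sign changed in these cases, 1 of which passed (Fezf2 with the trend removed, Fxr1 against sleep). With the trend removed: Slc17a7 -0.11 and Cux2 -0.13 (enforced wake against sleep), Slc17a7 0.016, Emx1 0.24, Cux2 0.040, Rorb -0.24, Fezf2 0.086, Bcl11b 0.030 and the CASP end 0.086 (Fxr1 against enforced wake), Slc30a3 0.11 and Fezf2 0.31 (Fxr1 against sleep). With the most abundant transcript: Emx1 0.062 and Cux2 -0.20 (enforced wake against sleep), Cux2 0.12, Rorb -0.24 and Bcl11b 0.11 (Fxr1 against enforced wake). With median scaling: Bcl11b 0.0070 (Fxr1 against enforced wake) and Fezf2 0.060 (Fxr1 against sleep). With the length-weighted sum: Bcl11b 0.038 (Fxr1 against enforced wake). Leaving out 1 library gave -0.16 to 0.019 for Emx1 (enforced wake against sleep), -0.42 to 0.023 for Cux1, -0.046 to 0.11 for Rorb and -0.72 to 0.084 for the CASP end (Fxr1 against enforced wake), -0.15 to 0.21 for Fezf2, -0.55 to 0.096 for Slc30a3 and -0.015 to 0.15 for the homeodomain end (Fxr1 against sleep).

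With the replicate number as a block, 3116, 1 and 372 genes passed and 4, 0 and 1 members; Bcl11b (0.22, adjusted p = 0.0648) and the homeodomain end of Cux1 (0.27, 0.0680) no longer passed in enforced wake against sleep. The numbers are not said to mark animals: deviations of same-numbered libraries correlated at -0.36 to 0.22, over 0.1 in 3 of 9 pairs, and 2 of 9 libraries correlated best with their own number.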
